A study of Rattus norvegicus with 6 samples.

Results

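The Wnt ligands, their receptors, their secreted antagonists and a few nuclear and feedback genes of the pathway were examined in rat heart primordia before and after heartbeat initiation. Members were taken by gene symbol from the array annotation: Wnt, Fzd, Sfrp and Dkk genes with a number in their symbol, Frzb, Lrp5, Lrp6, Ror1, Ror2, Lef1, genes whose symbol begins with Tcf7, Axin1 and Axin2. This gave 45 genes on 55 of the 30367 probes of the array, with 18 ligands, 9 frizzled receptors, 4 co-receptors, 9 secreted antagonists and 5 nuclear or feedback genes. A gene with several probes, as 9 of the 45 had, was represented by its brightest probe. Wnt2, Fzd10 and Tcf7l1 had no probe under these names and were not analysed here.

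The heart primordia came from embryos of Wistar rats (spelled Wister in the labels) on embryonic day 10, with no genetic change and no treatment. The pre-heartbeat group (n = 3) had a flat central shape and the post-heartbeat group (n = 3) a raised one, and both were sorted by shape and somite number, not by recorded contraction. The first and second heart fields were not separated, and whether the RNA of a sample was pooled from several embryos or litters is not given in the sources used here. The study's design calls the samples biological replicates.

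Wnt proteins are secreted, lipid-modified ligands that bind frizzled receptors on nearby cells. With Lrp5 or Lrp6 as co-receptor they stabilise beta-catenin, which then acts on target genes together with Lef1 and the Tcf proteins, while with Ror receptors they steer cell shape and movement without beta-catenin. In the early embryo, signaling through beta-catenin helps to form mesoderm and later restrains heart muscle formation next to the neural tissue, and secreted antagonists and Wnt11 are known for allowing or promoting heart formation.

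Values are the processed spot intensity on a log2 scale less the 75th percentile of the array, so that 0 is the 75th percentile of an array and a step of 1 is a factor of 2. They compare arrays for 1 probe. Levels of different probes served to choose the brightest probe of a gene and the 2 brightest members in each role. They were not tested against each other. Probes were tested where 1 group or both had all 3 arrays well above background. Of the 45 genes, 33 met this, 30 of them with all 6 arrays well above background. Of the other 12, Fzd5, Fzd9, Wnt7b, Wnt8b, Wnt10a, Wnt10b, Dkk2, Dkk4 and Sfrp4 (9 genes) were well above background on 0 arrays, and Wnt3, Wnt8a and Wnt9a (3 genes) on some. The arrays lay on 2 slides, of which the first carried 1 pre-heartbeat array (replicate 1) and 2 post-heartbeat arrays (replicates 1 and 2) and the second the remaining 3. The first principal component of the tested probes with a value on all 6 arrays held 60.2% of the variance, not assigned to the slides here. Between the slides, 3108 of the 19300 tested probes differed (limma, adjusted p under 0.05). Among them were the probes of 8 of the 33 tested members, 2 higher and 6 lower on slide 2. Differences are therefore also given within slides, and 20 of these 33 members had the same sign within both. Direction between slides and sign within them are not given over all tested probes, so these counts are not read as particular to the members.

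**Figure D1:**
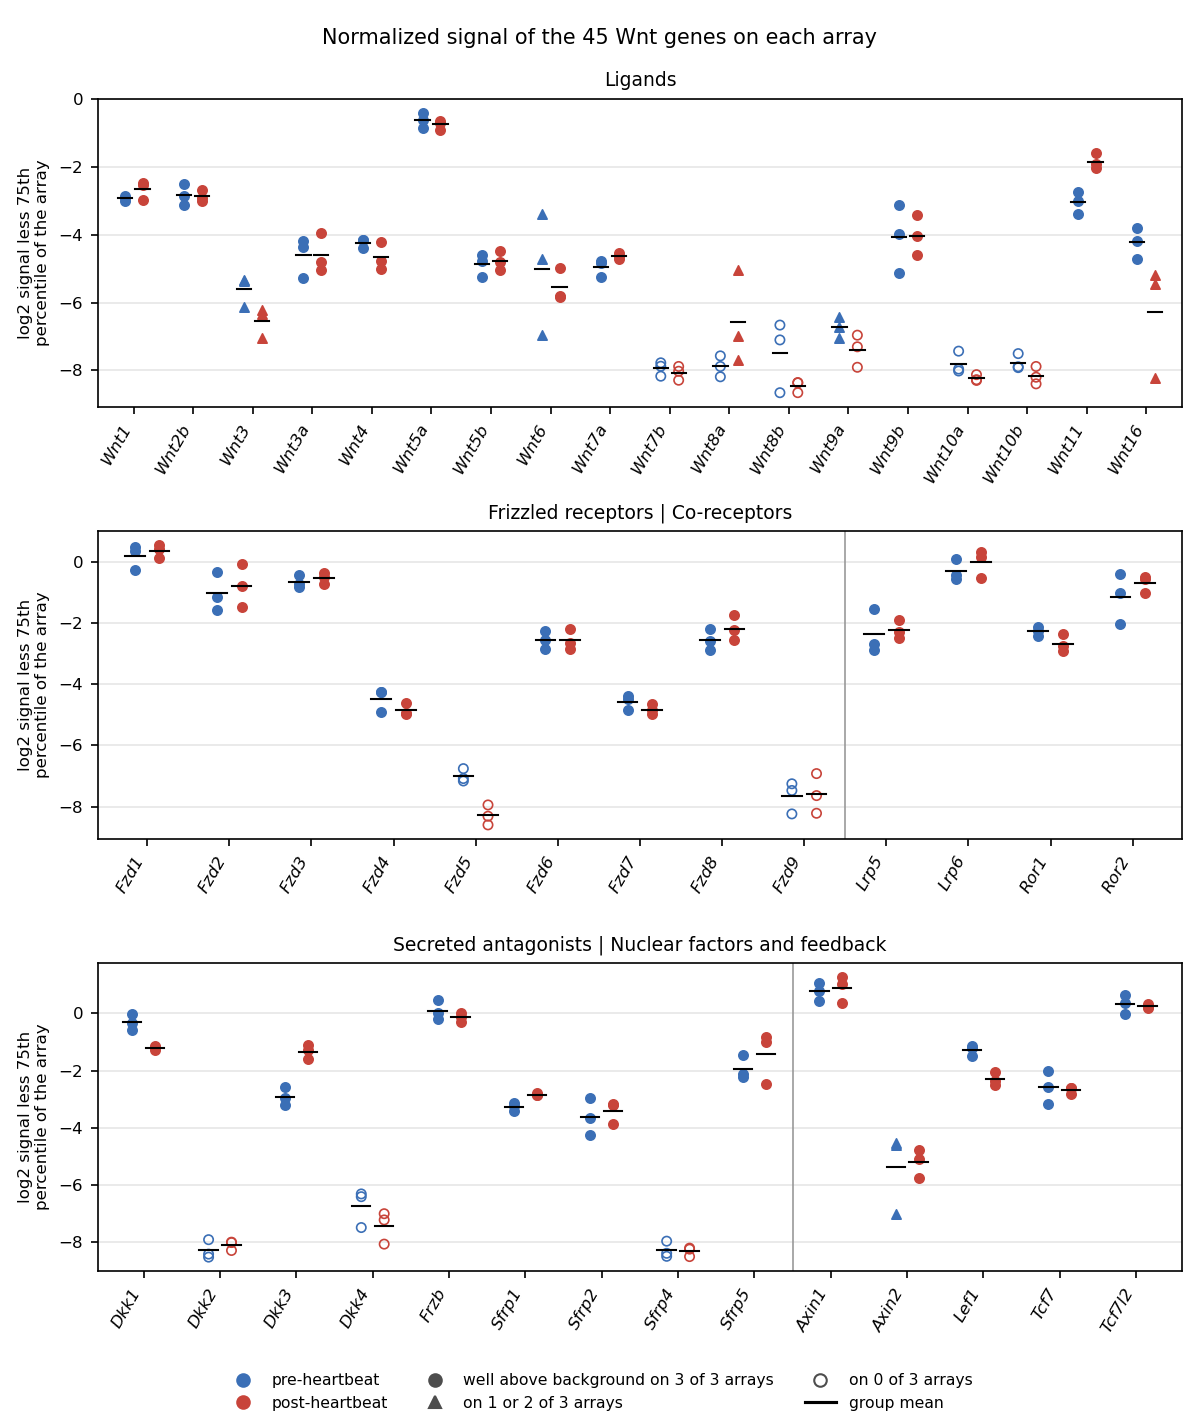
Normalized signal of the 45 genes, in the order of their symbols within each role, with 1 point per array, blue for the 3 pre-heartbeat and red for the 3 post-heartbeat arrays and a black bar for the group mean. Filled circles mark genes for which 3 of 3 arrays of the group were well above background, triangles 1 or 2 of 3, and open circles 0 of 3. The groups lie apart for Wnt11, Dkk3, Dkk1 and Lef1 and lie over each other for most other genes, and heights are comparable within a gene only.

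In the comparison of the groups, Wnt11 and Dkk3 were higher and Dkk1 and Lef1 lower in the post-heartbeat group, while all tested frizzled receptors, all co-receptors and all other tested ligands but Wnt16 differed by less than 1.5 fold in the fit with no block. The study's methods selected genes that were higher by at least 1.5 fold at p under 0.05 with no adjustment. Applied here in both directions, an extension to lower genes that is not the study's, this selection took Wnt11, Dkk3, Dkk1 and Lef1. Of these, 2 were higher, against 1.90% of all tested probes, and 2 were lower, against 1.16%. With limma (linear model with empirical Bayes moderation and Benjamini-Hochberg adjustment over all 19300 tested probes), 0 members passed an adjusted p of 0.05 in either direction, against 0.124% of all tested probes as higher and 0.0207% as lower. At an unadjusted p under 0.05, limma had 3 members higher (Wnt11, Dkk3 and Sfrp1) against 3.90% of all tested probes, and 3 lower (Wnt16, Dkk1 and Lef1) against 3.10%. When the slide was added as a block, Wnt11 and Dkk3 passed the adjusted threshold as higher (2 members, against 1.09% of all tested probes) and Dkk1 and Lef1 as lower (2 members, against 0.420%).

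The median log2 difference over the 33 tested members was 0.09 (-0.04 with the slide as a block), beside -0.02 over the 12685 tested genes with a symbol, with 19 members above 0 and 14 below. By role, the median log2 difference was 0.00 for ligands, 0.13 for frizzled receptors, 0.21 for co-receptors, 0.33 for secreted antagonists and -0.08 for nuclear and feedback genes. With the slide as a block the medians of co-receptors and secreted antagonists were both 0.03, and without 1 array they ran from -0.04 to 0.52 and from 0.13 to 0.52, with the low ends without pre-heartbeat replicate 2 and the high ends without pre-heartbeat replicate 1. The values of the 2 groups did not overlap for 4 tested members that were higher (Wnt11, Wnt7a, Dkk3 and Sfrp1), against 5.38% of all tested probes, and for 3 that were lower (Wnt16, Dkk1 and Lef1), against 6.17%. For each of these 7 genes the two-sided exact permutation test gave p = 0.1, the smallest p that 3 arrays against 3 allow.

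**Figure D2:**
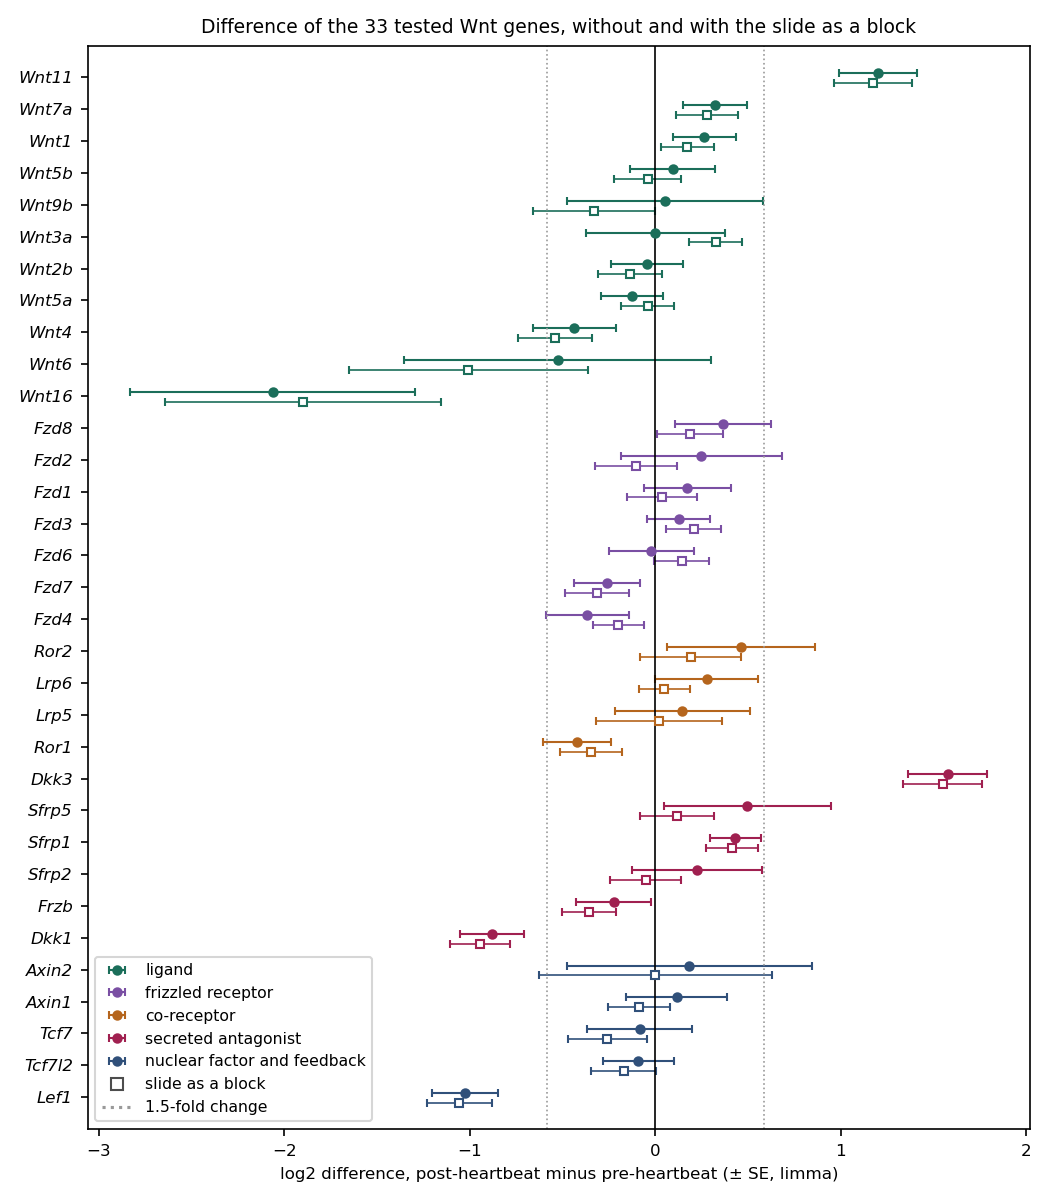
Log2 difference between the groups, post-heartbeat minus pre-heartbeat, for the 33 tested genes by role, with the standard error from limma as bars. Filled circles are without and open squares with the slide as a block, and dotted lines mark a change of 1.5 fold. Wnt11 at 1.20, Dkk3 at 1.58, Dkk1 at -0.88 and Lef1 at -1.03 lie beyond the lines with short bars in both, while Wnt16 at -2.06 has a long one.

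Among the ligands, Wnt11, which is known for signaling without beta-catenin and for its part in heart muscle formation, differed most clearly. Before heartbeat initiation its signal was -3.01, -3.37 and -2.74 (replicates 1, 2 and 3), and after it -1.59, -2.02 and -1.92. All 3 post-heartbeat values were above all pre-heartbeat values. The log2 difference was 1.20 ± 0.21 (SE, n = 3 per group), or 2.30 fold, with an adjusted p of 0.115 in limma and of 0.0437 with the slide as a block. Within slides the log2 difference was 1.21 on slide 1 and 1.14 on slide 2. The probe lies at chr1:156141221-156141280 on the rn4 genome, to which all probe positions refer, and a second probe for Wnt11, at chr1:156140983-156141042, gave -2.86, -3.39 and -2.92 before and -1.62, -2.03 and -1.99 after, a log2 difference of 1.17 ± 0.20.

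Wnt16, a ligand best known from blood and skeletal development, was dimmer after heartbeat initiation but with a wide spread. Its signal was -3.80, -4.70 and -4.17 before and -5.46, -8.21 and -5.19 after, and it was well above background on 3 of 3 pre-heartbeat and 2 of 3 post-heartbeat arrays. The groups did not overlap, and post-heartbeat replicate 2 stood far below the others, with a signal that was not well above background. The log2 difference was -2.06 ± 0.77 (unadjusted p = 0.0310 and adjusted p = 0.607 in limma), and it was -3.04 within slide 1, which holds the low array, and -0.76 within slide 2. Without post-heartbeat replicate 2 the log2 difference was -1.10, and with normexp background correction, which models the background of each array, it was -0.71.

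Wnt7a, a ligand known from the limb and the nervous system, had signals of -4.78, -5.25 and -4.83 before and -4.54, -4.72 and -4.64 after. The groups did not overlap, but the post-heartbeat values lay close above the pre-heartbeat ones, with a log2 difference of 0.32 ± 0.17 and an adjusted p of 0.859 in limma.

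Wnt5a, a ligand of the outflow region and the tail that mostly acts without beta-catenin, had signals of -0.84, -0.39 and -0.60 before and -0.90, -0.70 and -0.62 after, with groups that overlapped and a log2 difference of -0.13 ± 0.17. Wnt2b, known from mesoderm flanking the heart, had signals of -2.50, -3.11 and -2.84 before and -2.67, -3.00 and -2.91 after, and its log2 difference was -0.04 ± 0.20.

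Wnt3a, a ligand of the primitive streak and tail bud that acts through beta-catenin, differed more between the slides than between the groups. Its signal was -5.26, -4.17 and -4.37 before and -5.03, -4.81 and -3.96 after, with a log2 difference between the groups of 0.00 ± 0.37. All 3 arrays of slide 2 were above all arrays of slide 1, by 0.98 on the log2 scale (limma, adjusted p = 0.00524 between the slides). The log2 difference between the groups was 0.34 within slide 1 and 0.31 within slide 2. With the slide as a block it was 0.33 ± 0.14 (limma, adjusted p = 0.522).

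Wnt3 and Wnt8a, which act early in gastrulation, were not tested. Wnt3 was well above background on 2 of 3 pre-heartbeat arrays and 1 of 3 post-heartbeat arrays, with signals of -5.32, -6.14 and -5.37 before and -7.05, -6.34 and -6.21 after, all lower after. Wnt8a was well above background on 1 array, post-heartbeat replicate 1, with signals of -8.19, -7.89 and -7.57 before and -5.03, -7.71 and -7.00 after. Wnt10a had signals of -7.43, -8.02 and -7.96 before and -8.28, -8.30 and -8.13 after, lower on every post-heartbeat array, but it was not well above background on any. The other tested ligands were Wnt1, Wnt4, Wnt5b, Wnt6 and Wnt9b, whose groups overlapped. Of these, Wnt4, given here after its values were seen, had a log2 difference of -0.44 ± 0.23. With the slide as a block it was -0.54 ± 0.20 (limma, adjusted p = 0.386).

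Wnt6, a ligand known from surface ectoderm and described here after its values were seen, had signals of -3.38, -6.96 and -4.71 before and -4.98, -5.81 and -5.84 after. Pre-heartbeat replicate 2, the lowest of the 6 arrays, was not well above background, and pre-heartbeat replicates 1 and 3 were the highest. With no block the log2 difference was -0.53 ± 0.83, and the block by slide gave -1.01 ± 0.65 (limma, adjusted p = 0.871 and 0.810). Within slide 1 it was -2.01 and within slide 2 -0.01. It was -1.50 without pre-heartbeat replicate 2 and 0.29 without pre-heartbeat replicate 1, so that its direction rested on single arrays.

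The frizzled receptors are the membrane proteins that bind Wnt ligands. All 7 tested receptors (Fzd1, Fzd2, Fzd3, Fzd4, Fzd6, Fzd7 and Fzd8) had log2 differences between -0.37 and 0.37 with standard errors of 0.17 to 0.44, and their groups overlapped. Their smallest adjusted p was 0.865 in limma. Fzd1 had signals of 0.49, -0.26 and 0.36 before and 0.56, 0.42 and 0.13 after, a log2 difference of 0.17 ± 0.24. Fzd3, known from axon guidance and planar polarity, had signals of -0.81, -0.41 and -0.71 before and -0.71, -0.48 and -0.36 after, a log2 difference of 0.13 ± 0.17. Neither receptor had a group of arrays that stood apart. Fzd5, known from the eye field and the yolk sac, had signals of -7.16, -6.76 and -7.08 before and -8.32, -7.95 and -8.60 after, lower on every post-heartbeat array, but it was not well above background on any and has only a bound there, so that no fold is given.

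Of the co-receptors, Lrp5 and Lrp6 serve the beta-catenin branch, and Ror1 and Ror2 bind ligands such as Wnt5a. All 4 were tested, with log2 differences from -0.42 to 0.46 on their brightest probes. The brightest probe of Lrp6 had signals of 0.11, -0.43 and -0.54 before and 0.35, 0.16 and -0.52 after. The slides separated these values more than the groups did: slide 2 was lower by 0.69 on the log2 scale (limma, adjusted p = 0.0167), and the log2 difference between the groups was 0.28 ± 0.28, or 0.05 ± 0.14 with the slide as a block. The second Lrp6 probe had signals of -0.30, -0.21 and -0.30 before and -0.42, -0.58 and -0.35 after, with a log2 difference of -0.18 ± 0.13, so that the 2 probes differed in sign.

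Ror2, a receptor for Wnt5a that is needed for normal heart and skeletal shape, had signals of -0.40, -2.02 and -1.02 before and -0.47, -0.56 and -1.03 after. The groups overlapped, with pre-heartbeat replicate 2 the lowest array, and the log2 difference was 0.46 ± 0.40. A second, dimmer Ror2 probe had signals of -3.48, -4.21 and -3.40 before and -2.96, -3.18 and -3.19 after. On this probe all post-heartbeat values were above all pre-heartbeat values, with a log2 difference of 0.59 ± 0.24 (unadjusted p = 0.0425 and adjusted p = 0.683 in limma).

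Among the secreted antagonists, members of the Dickkopf family differed in opposite directions. Dkk3, a divergent Dickkopf protein that does not block Lrp5 and Lrp6 in the manner of Dkk1, had signals of -2.58, -2.96 and -3.20 before and -1.60, -1.29 and -1.11 after (probe at chr1:169924663-169924722). The post-heartbeat arrays were all above the pre-heartbeat arrays. The log2 difference was 1.58 ± 0.21 (SE, n = 3 per group), or 2.98 fold, with an adjusted p of 0.0700 in limma and of 0.0199 with the slide as a block, and it was 1.13 within slide 1 and 1.97 within slide 2.

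Dkk1, which binds Lrp5 and Lrp6 and keeps them from taking part in Wnt signaling, had signals of -0.03, -0.35 and -0.57 before and -1.15, -1.27 and -1.17 after (probe at chr1:234392749-234392808). All 3 post-heartbeat values were below all pre-heartbeat values and close to each other. The log2 difference was -0.88 ± 0.17, or 1.84 fold lower, with an adjusted p of 0.155 in limma and of 0.0359 with the slide as a block, and it was -1.18 within slide 1 and -0.72 within slide 2. A second, dimmer Dkk1 probe, at chr1:234393623-234393682, had signals of -4.38, -4.03 and -4.19 before and -4.78, -5.57 and -5.14 after, again with no overlap, and a log2 difference of -0.96 ± 0.23.

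Secreted frizzled-related proteins bind Wnt ligands through a domain like that of the receptors. Sfrp1 had signals of -3.14, -3.42 and -3.24 before and -2.86, -2.86 and -2.79 after. The post-heartbeat values were all higher and closely spaced, with a log2 difference of 0.43 ± 0.14, or 1.35 fold, an unadjusted p of 0.0168 and an adjusted p of 0.458 in limma (0.318 with the slide as a block). Frzb, also called Sfrp3, had signals of 0.47, -0.19 and 0.00 before and 0.02, -0.12 and -0.29 after, with groups that overlapped and a log2 difference of -0.22 ± 0.20.

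Sfrp5, known from the anterior foregut and the precursors of the inflow tract, differed between the slides by -1.14 on the log2 scale (slide 2 lower, limma adjusted p = 0.0101). Its signal was -1.45, -2.13 and -2.21 before and -0.83, -0.99 and -2.47 after. Post-heartbeat replicate 3, on slide 2, was the lowest of the 6 arrays, and the other post-heartbeat arrays were the highest. The log2 difference was 0.50 ± 0.45 over all arrays, 0.12 ± 0.20 with the slide as a block, 0.54 within slide 1 and -0.30 within slide 2. A second Sfrp5 probe had a log2 difference of 0.60 ± 0.26 (unadjusted p = 0.0533 in limma), with groups that also overlapped. With the slide as a block this probe was at 0.41 ± 0.17 (limma, adjusted p = 0.450). Within slides it was at 0.69 on slide 1 and 0.14 on slide 2, so that the 2 probes differed in sign on slide 2.

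**Figure D3:**
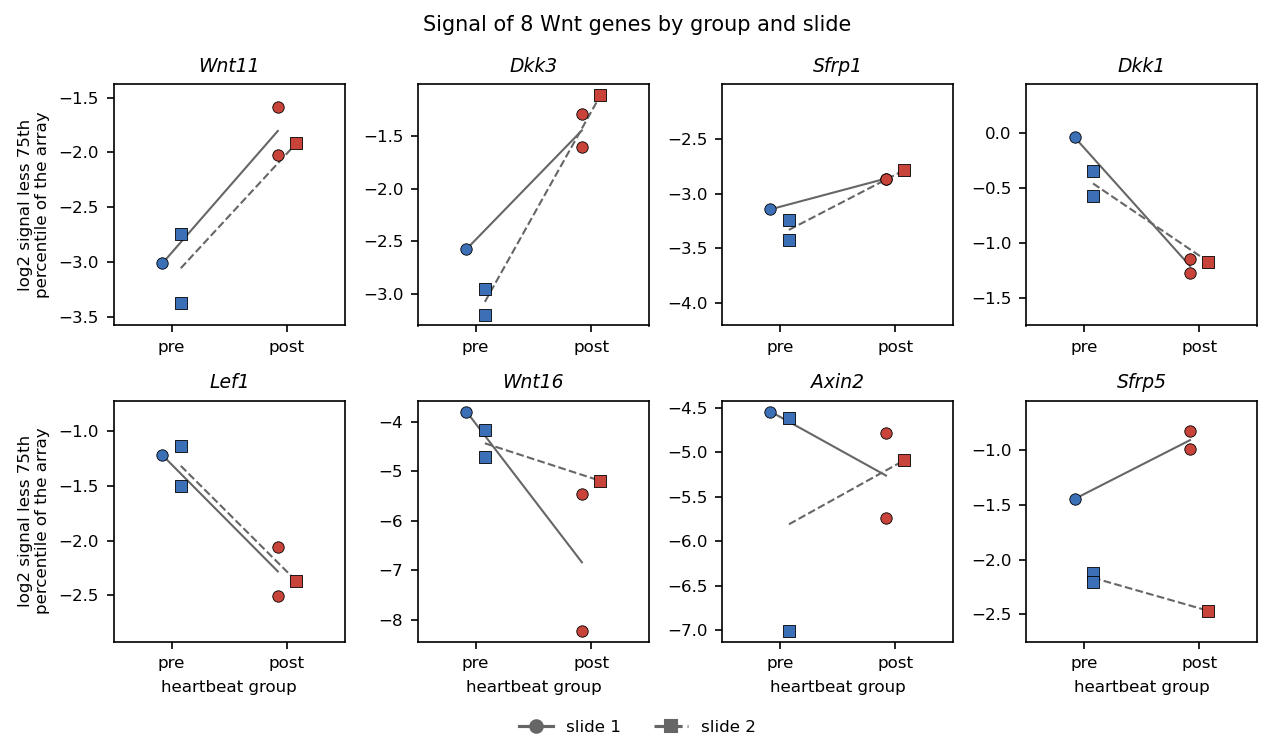
Normalized signal of 8 genes in the pre-heartbeat and post-heartbeat groups, with circles and solid lines for slide 1 and squares and dashed lines for slide 2; lines join the group means within a slide, and each panel has its own vertical scale. Each gene is shown by its brightest probe. The lines run the same way on both slides for Wnt11, Dkk3, Sfrp1, Dkk1, Lef1 and Wnt16, and opposite ways for Axin2 and Sfrp5.

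Lef1, the DNA-binding partner of beta-catenin that is itself often raised by Wnt signaling, was lower after heartbeat initiation. Its brightest probe had signals of -1.22, -1.50 and -1.14 before and -2.06, -2.51 and -2.37 after, with no overlap. The log2 difference was -1.03 ± 0.18 (SE, n = 3 per group), or 2.04 fold lower, with an adjusted p of 0.115 in limma and of 0.0355 with the slide as a block, and it was -1.06 within slide 1 and -1.05 within slide 2. The 3 Lef1 probes of the array are shown because their signal and the size of their difference vary, though the mean was lower after on each. The capitals mark the 4 of 52 shared bases at which the overlapping pair differ.
A_64_P052010, chr2:228668698-228668757: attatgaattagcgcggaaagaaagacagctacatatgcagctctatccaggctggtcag
A_64_P166158, chr2:228659730-228659789: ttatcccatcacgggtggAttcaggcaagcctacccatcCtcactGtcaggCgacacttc
A_64_P052007, chr2:228659738-228659797: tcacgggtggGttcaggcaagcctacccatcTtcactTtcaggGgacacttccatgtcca
The values above are those of the first probe. The second was well above background on 3 of 3 pre-heartbeat and 2 of 3 post-heartbeat arrays, with signals of -5.75, -5.82 and -5.54 before and -5.49, -6.29 and -6.31 after, groups that overlapped and a log2 difference of -0.33 ± 0.25. The third was well above background on 0 arrays. Its signals were -7.44, -6.30 and -6.84 before and -8.23, -8.26 and -7.79 after, lower on every post-heartbeat array, and no fold is given.

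Axin2, an inhibitor of beta-catenin that Wnt signaling itself switches on and that often serves as its readout, did not differ beyond the spread. Its signal was -4.54, -7.01 and -4.61 before and -4.78, -5.74 and -5.09 after. Pre-heartbeat replicate 2, which was not well above background, lay far below the other arrays, and the log2 difference was 0.18 ± 0.66 over all arrays, -0.72 within slide 1 and 0.72 within slide 2. Without pre-heartbeat replicate 2 the log2 difference was -0.63, with the post-heartbeat values all below the others (limma, adjusted p = 0.889).

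Axin1, the scaffold of the complex that degrades beta-catenin, had signals of 1.07, 0.45 and 0.79 before and 1.27, 1.02 and 0.37 after, a log2 difference of 0.12 ± 0.27 that was -0.09 ± 0.17 with the slide as a block. Tcf7l2, a Tcf factor that acts with beta-catenin, had signals of 0.65, -0.01 and 0.37 before and 0.19, 0.31 and 0.24 after, a log2 difference of -0.09 ± 0.19. Groups overlapped for both, as they did for Tcf7. The rule for named genes left out 14 tested members (5 ligands with Wnt6 among them, 5 frizzled receptors, Lrp5, Ror1, Sfrp2 and Tcf7). In limma with no block they had log2 differences from -0.53 to 0.37 and adjusted p of 0.747 or more.

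The letters CTTTGA are a form of the core that Lef1 and Tcf proteins recognise, and other forms were not searched. CTTTGA was searched on both strands in the 250 bases before the gene start, from RefSeq on the GRCr8 build. Of the 45 members, 31 had an entry, and 4 of these (12.9%) held the letters (Axin2, Dkk1, Fzd7 and Wnt8a), beside 13.9% of 33469 promoters. The windows of Wnt11, Dkk1 and Lef1, which differed between the groups, and of Axin2 are printed, with each occurrence (CTTTGA or, on the other strand, TCAAAG) in capitals.
Wnt11, chr1:162549110-162549359, plus strand: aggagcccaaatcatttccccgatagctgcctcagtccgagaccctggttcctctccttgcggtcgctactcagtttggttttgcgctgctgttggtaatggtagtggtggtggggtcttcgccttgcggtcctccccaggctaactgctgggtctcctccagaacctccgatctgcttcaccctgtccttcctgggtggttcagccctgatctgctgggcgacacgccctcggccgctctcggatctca
Dkk1, chr1:237798651-237798900, minus strand: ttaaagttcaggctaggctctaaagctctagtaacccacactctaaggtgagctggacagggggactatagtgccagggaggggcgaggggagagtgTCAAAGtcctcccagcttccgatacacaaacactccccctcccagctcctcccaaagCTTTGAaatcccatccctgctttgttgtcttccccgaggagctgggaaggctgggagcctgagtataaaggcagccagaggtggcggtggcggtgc
Lef1, chr2:222340463-222340712, plus strand: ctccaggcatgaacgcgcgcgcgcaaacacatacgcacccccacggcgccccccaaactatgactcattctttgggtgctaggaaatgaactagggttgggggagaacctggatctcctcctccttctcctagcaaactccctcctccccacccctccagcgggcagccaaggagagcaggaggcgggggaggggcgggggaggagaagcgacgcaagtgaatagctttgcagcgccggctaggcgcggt
Axin2, chr10:94398535-94398784, plus strand: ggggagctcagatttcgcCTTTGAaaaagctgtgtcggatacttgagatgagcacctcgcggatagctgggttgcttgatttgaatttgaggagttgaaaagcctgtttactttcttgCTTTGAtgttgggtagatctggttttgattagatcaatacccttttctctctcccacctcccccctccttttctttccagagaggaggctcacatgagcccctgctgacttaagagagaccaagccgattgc
The Dkk1 and Axin2 windows each held the letters 2 times, starting 153 and 96 bases before the gene start in Dkk1 and 232 and 132 bases before it in Axin2, and the Fzd7 window, not printed here, also held them 2 times. In all, 3 of the 31 members (9.68%) and 1.40% of all promoters held them 2 or more times, and the groups overlapped for Fzd7. The windows of Wnt11 and Lef1 held them 0 times. Dkk1 was lower after heartbeat initiation and Axin2 did not differ beyond its spread, and a match of letters does not show a bound site.

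Of 66 other genes of the pathway, 59 were on the array and 47 were tested, with a median log2 difference of 0.05. With limma, 0 passed the adjusted threshold, and at an unadjusted p under 0.05, 1 was higher (3.90% of all tested probes were) and 2 were lower (3.10%), numbers near the shares over all probes. Wif1, a secreted protein that binds Wnt ligands, had signals of -3.72, -3.29 and -3.49 before and -4.03, -4.30 and -4.11 after. Its groups did not overlap, and its log2 difference was -0.65 ± 0.17 (adjusted p = 0.285 in limma). Daam1, a formin that links Dishevelled to the actin skeleton, had a log2 difference of -0.45 ± 0.17, and Prickle3, a protein of planar polarity, one of 0.37 ± 0.15. Wif1 was the only gene of the 47 in the selection as extended to lower genes. By place in the pathway, the median log2 difference was 0.06 for 2 secretion genes, 0.01 for 11 surface and extracellular genes, 0.06 for 5 planar polarity genes, 0.03 for 16 cytoplasmic genes and 0.09 for 13 nuclear genes.

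Of 28 genes known to respond to beta-catenin in embryos, 25 were on the array and 17 were tested, 8 of them with a log2 difference above 0 and 9 below, with a median of -0.05. With limma, 0 passed the adjusted threshold. At an unadjusted p under 0.05, 1 was higher, against 3.90% of all tested probes, and 2 were lower, against 3.10%. With the slide as a block, 1 passed as lower, against 0.420%. Snai2, a repressor known from neural crest cells that leave the epithelium, had signals of -3.32, -3.24 and -2.86 before and -4.87, -4.63 and -4.05 after. The groups did not overlap, and the log2 difference was -1.37 ± 0.24 (adjusted p = 0.117 in limma and 0.0227 with the slide as a block). Msx2, a homeobox gene of neural crest and limb, had a log2 difference of -0.40 ± 0.15, with no overlap between the groups.

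**Figure D4:**
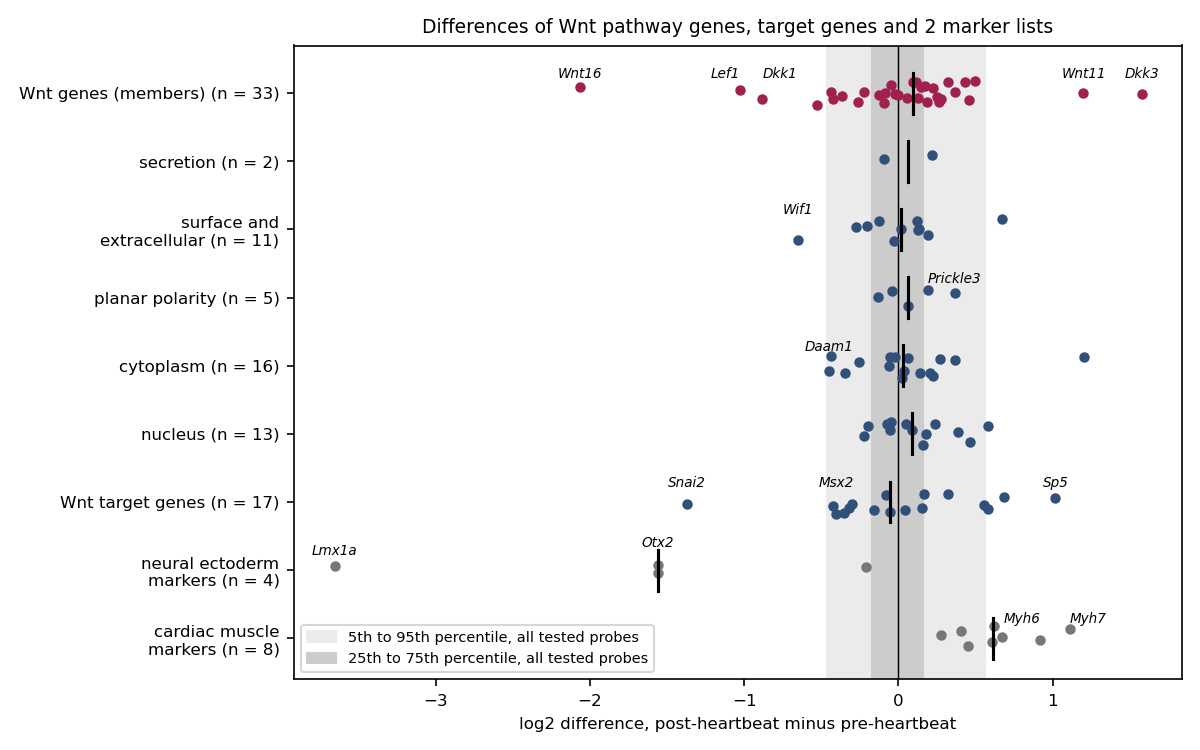
Log2 difference between the groups, post-heartbeat minus pre-heartbeat, with 1 point per tested gene, for the 33 Wnt genes, 5 groups of other pathway genes, 17 target genes and 2 lists of cell type markers; black bars are medians, and grey bands hold the middle of all tested probes. Medians of the pathway and target lists lie between -0.05 and 0.09, that of the neural ectoderm markers at -1.56 and that of the cardiac muscle markers at 0.62.

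The tissue was also checked against cell type markers. All 8 cardiac muscle markers were well above background and had log2 differences above 0, with a mean signal of 3.33 to 3.69 on the pre-heartbeat and 4.07 to 4.17 on the post-heartbeat arrays. The atrial and ventricular myosin heavy chain genes Myh6 and Myh7 had the largest log2 differences of the list, 0.92 ± 0.23 and 1.11 ± 0.19. The groups lay apart for 4 of the 8 genes. They overlapped for Tnnt2, Actc1, Nkx2-5 and Gata4, with log2 differences of 0.28, 0.41, 0.67 and 0.62. All 4 tested neural ectoderm markers, of 7 on the array, had log2 differences below 0, with a mean signal of -0.87 to -0.20 before and -2.79 to -1.90 after. Otx2, which marks forebrain and midbrain ectoderm, had a log2 difference of -1.56 ± 0.14 (limma, adjusted p = 0.0201), Hesx1 one of -1.56 ± 0.23 (adjusted p = 0.0837), and Lmx1a, a gene of the roof plate, one of -3.66 ± 0.64 (adjusted p = 0.115). Of the post-heartbeat arrays, 1 of 3 was well above background for Lmx1a, and with normexp background correction its log2 difference was -1.67, so that the size is uncertain. With the slide as a block, Hesx1 (adjusted p = 0.0181), Lmx1a (0.00486), Myh6 (0.0348) and Myh7 (0.0240) passed the adjusted limma threshold as well. Sox2, the remaining tested neural marker, had groups that overlapped. Its log2 difference was -0.21 ± 0.42 (limma with no block, adjusted p = 0.897), so that the neural list did not fall evenly. These lists moved beside the lower Dkk1 and Lef1 and the higher Wnt11 and Dkk3, and their part in those differences was not tested. In bulk samples of this kind, fewer cells of a type and less RNA per cell cannot be told apart.

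For the other lists, the number of tested genes with log2 differences above and below 0 was 2 and 4 for the second heart field, 1 and 4 for definitive and pharyngeal endoderm, 2 and 4 for yolk sac endoderm, 5 and 0 for paraxial mesoderm, 0 and 2 for the primitive streak and tail bud, 1 and 4 for endothelial genes, 2 and 1 for erythroid genes and 1 and 1 for the proepicardium. With limma, 0 genes of these 8 lists passed the adjusted threshold. With the slide as a block 1 erythroid gene passed as higher, against 1.09% of all tested probes. It was Epor, the erythropoietin receptor, named after its values were seen, with a log2 difference of 1.26 ± 0.22 with no block. Of the other tested erythroid genes, Hbz was at 0.72 and Klf1 at -0.25, both with groups that overlapped. Of the lists' defining genes, Shh, Six3, Msgn1, Cdx4, Gata1 and Hbe1 were well above background on 0 arrays.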

How the data were processed

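Gene expression was measured in 3 pre-heartbeat and 3 post-heartbeat samples of rat heart primordium with 1-color arrays (G3 Rat GE, 1 array per sample). The authors deposited, per the file headers, the spot intensity from Agilent Feature Extraction 10.7.3.1, with the background subtracted and no normalization between arrays, and a table of linear ratio values made in GeneSpring (75th percentile shift, then a baseline for each probe). Differences of these ratios were within 0.01 (log2) of those of the intensity for 100% of 30363 probes.

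Control and outlier spots were left out, the 75th percentile of each array (1143 to 1694 intensity units) was subtracted on the log2 scale, and spots of the same probe were then averaged. Between 39375 and 41327 of 58717 spots per array were well above background and 0 were saturated. Precision is limited by the number of arrays, and p-values measure the spread between these samples only. Groups were compared with limma 3.58.1 in R 4.3.3, post-heartbeat minus pre-heartbeat, with no block, because the methods state none. The limma step was tested on simulated data. The methods' selection of higher genes, applied here in both directions, used the Tukey HSD test, which for 2 groups is the pooled comparison of the means. A probe counted as well above background if 50% or more of its spots were. Of the 45 members, 40 were matched to a current symbol by accession.

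Values on every array are given for members with groups apart by 0.3 or more on the log2 scale, at p under 0.05 in limma, either unadjusted or, if the slide was a block, adjusted, for the 2 brightest in each role, and for a set of genes known from heart field work. Members, lists and alternatives were chosen with earlier results of these data known. Lists are described by counts and medians, with no test, and 1 target gene that the rule names is not reported here. Alternatives were the slide or the replicate number as a block, normexp background correction (offset 50), quantile normalization, another set of probes for the percentile, the authors' ratios, other filters, an intensity trend, the mean of a gene's probes, a fold threshold of 2, the methods' test with adjustment, and leaving out each array in turn. Figures were drawn in Python 3.11.15 with matplotlib 3.10.9.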

Additional observations from a re-analysis of the deposited data

How the results depend on the processing

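Wnt11, Dkk3 and Lef1 met the methods' selection under every alternative run, and Dkk1 under all but a fold threshold of 2, at which 1 member was lower (Lef1). The adjusted limma threshold depended on the fit. With the slide as a block 2 members passed as higher and 2 as lower, with normexp background correction or an intensity trend 1 was higher (Dkk3), and without each array in turn 0 passed in either direction. The replicate numbers share only a number: deviations from the group means correlated at 0.648, -0.277 and 0.494 between same-numbered arrays, and 2 of 3 correlated best with their own number. With this replicate block, 2 members passed as higher (Wnt11 and Dkk3) and 1 as lower (Lef1). With either block, normexp or an intensity trend, more of all tested probes passed the adjusted limma threshold in both directions than as reported. Over all tested probes, the count past the adjusted limma threshold ran from 0 to 210 for higher and from 0 to 81 for lower, and the methods' selection from 149 to 718 and from 78 to 525, against 366 and 223 as reported. Among other pathway genes the selection took 1 as higher with the slide as a block and 2 with the replicate block. Over all tested probes it also took more with these blocks than as reported, with 718 as higher for the replicate block. As lower it took 0 other pathway genes with normexp or a fold threshold of 2 and 0 to 2 without 1 array. With normexp or this threshold, fewer of all tested probes were taken as lower too, with 78 for normexp. Among target genes, 1 passed limma as lower with the slide or the replicate as a block (Snai2). The selection took 2 target genes as higher with the replicate block, 1 with the authors' ratios or an intensity trend, and 0 to 1 without 1 array. Over all tested probes, the selection took more as higher than reported with an intensity trend and fewer with the authors' ratios. Without 1 array, the median log2 difference ran from -0.10 to 0.27 for the members, from -0.37 to 0.20 for nuclear and feedback genes and from -0.16 to 0.27 for target genes; the low end came without pre-heartbeat replicate 2 and the high end without pre-heartbeat replicate 1. Some members near 0 changed sign. Axin1 was at -0.086 with the slide as a block and at -0.074 to 0.37 without 1 array, the Axin2 log2 difference at -0.0779 with normexp and at -0.63 to 0.61, and the Wnt3a log2 difference at -0.0132 with the percentile over detected probes, -0.018 with the authors' ratios and -0.33 to 0.22. Without 1 array, Wnt2b ran from -0.19 to 0.12, Fzd1 from -0.058 to 0.32 and Tcf7l2 from -0.26 to 0.064. The causes of these changes were not tested. With 3 arrays a group and RNA of whole heart primordia, a difference of the size of the frizzled receptors' standard errors was not detectable, and genes not well above background have only a bound.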
